A study of Mus musculus with 7 samples.

Results

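Named long noncoding RNAs, transcripts that work as RNA or by being transcribed and are not read into protein, were examined in the mouse retina after infusion of angiotensin II (Ang II), a peptide hormone that raises blood pressure. Members were selected on annotation, name and level, with values of the same 7 libraries. A gene was taken when the count table annotated it as lincRNA, lncRNA, antisense, processed_transcript or bidirectional_promoter_lncRNA, placed it on chromosomes 1 to 19, gave it a symbol that is not a gene-model or clone name, and gave it a mean of at least 1 CPM (counts scaled to library size) over the 7 libraries. This left 131 of the 54532 gene IDs in the table. The 5 biotypes cover 9330 IDs, of which 8603 lie on those chromosomes and 548 of these are named, and 417 of the named genes were under 1 CPM. The mean over all 7 libraries chose the members, without regard to treatment. Just inside the limit lay Sptbn5 at 1.07 CPM, Pvt1 at 1.05 CPM and Med9os at 1.04 CPM, and just outside it lay Lrp8os2 at 0.989 CPM, Ube4bos2 at 0.976 CPM and Lppos at 0.970 CPM, all before scaling between libraries.

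The libraries were poly-A selected RNA of retina, taken on day 28 from mice infused with Ang II (4 libraries) or with saline (3 libraries). The series text gives the mice of both groups as ApoE-/-, which lack apolipoprotein E, whereas the sample labels give both groups as WT. Each library's dose, age, sex and number of animals is not given in the sources used here. P-values therefore measure the spread between these libraries, which may be technical.

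Long noncoding RNAs act in several ways. Some stay in the nucleus and scaffold bodies there, as Neat1 does for paraspeckles and Malat1 does at nuclear speckles. Others are precursors, whose exons or introns are cut to give microRNAs or small nucleolar RNAs (snoRNAs), the guides for chemical marks on ribosomal RNA. A further group is transcribed across or back to back with a coding gene, often that of a developmental transcription factor, and imprinted long noncoding RNAs are made from one parental copy only. In retina, the hosts of miR-124, Vax2os, Six3os1, Tug1 and Rncr4 have been described in developing or mature photoreceptors and neurons.

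The 131 genes were 48 antisense, 40 lincRNA, 36 processed_transcript and 7 bidirectional_promoter_lncRNA genes. By position, 21 held snoRNA genes of the table on their own strand (267 snoRNA genes, 208 of them in Snhg14), 20 held microRNA genes (51), and 4 held both kinds. A protein-coding gene body was overlapped by 67, and 42 started within 1000 bases of a protein-coding start on the other strand. None of these positions applied to 26, Malat1, Neat1, Miat and Rncr4 among them. RefSeq gave 12 of the 117 genes found there as protein coding, among them Cct6a, Zswim6, Trerf1, Ptpmt1, Ifi30 and Zfp469. For these the deposited annotation and RefSeq differ. GENCODE M21 held 130 of the 131 genes and gave 0 of them as protein coding.

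The microRNAs lying inside the hosts show what these transcripts can yield. Mature sequences in RefSeq (GRCm38.p6) were found for 43 of the 49 hosted microRNA genes that were looked up, giving 81 mature sequences of 80 distinct microRNAs with 74 seeds, the bases 2 to 8 that pair with targets. Of these seeds 6 occur at more than 1 locus, and the microRNAs that share them are printed first, 5′ to 3′ with the seed in capitals. The seed GAGGUAG occurs at 3 loci in 2 hosts, Lncppara and Mir99ahg. Within Mir17hg, AAAGUGC and GUGCAAA each occur at 2 loci, and AGCAGCA occurs at 2 loci in Dleu2, GGUUGCC at 2 in Mirg and UAUACAA at 2 in Lncppara. The others shown are examples from 7 hosts that each have a seed of their own among these, with miR-9 and miR-129 known as microRNAs of neurons.
let-7b-5p (Lncppara): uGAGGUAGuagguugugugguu
let-7c-5p (Lncppara and Mir99ahg): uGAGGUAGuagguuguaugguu
miR-17-5p (Mir17hg): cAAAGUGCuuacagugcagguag
miR-20a-5p (Mir17hg): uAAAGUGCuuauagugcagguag
miR-19a-3p (Mir17hg): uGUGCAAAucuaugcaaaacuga
miR-19b-3p (Mir17hg): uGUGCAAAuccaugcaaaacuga
miR-15a-5p (Dleu2): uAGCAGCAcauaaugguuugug
miR-16-5p (Dleu2): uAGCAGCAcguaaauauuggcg
let-7b-3p (Lncppara): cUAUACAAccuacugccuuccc
let-7c-2-3p (Lncppara): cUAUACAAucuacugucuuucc
miR-453 (Mirg): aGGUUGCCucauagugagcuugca
miR-496a-5p (Mirg): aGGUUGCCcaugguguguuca
miR-18a-5p (Mir17hg): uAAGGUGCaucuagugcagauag
miR-92a-3p (Mir17hg): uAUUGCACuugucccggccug
miR-99a-5p (Mir99ahg): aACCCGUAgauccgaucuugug
miR-125b-5p (Mir99ahg): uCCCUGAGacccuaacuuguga
miR-9-5p (Mir9-3hg): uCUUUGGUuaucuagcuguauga
miR-22-3p (Mir22hg): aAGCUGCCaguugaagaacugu
miR-129-5p (Mir670hg): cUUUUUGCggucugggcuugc
miR-138-5p (C78859): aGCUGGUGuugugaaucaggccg
miR-135a-5p (Rmst): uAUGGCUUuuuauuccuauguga
Mir124-2hg and Mir124a-1hg hold Mir124a-2 and Mir124a-1. Poly-A selected libraries with long inserts do not measure mature microRNAs or snoRNAs, and of the 51 hosted microRNA genes 32 had 0 counts in all 7 libraries together, while 240 of 267 hosted snoRNA genes did. Mir124a-2 had the most counts of the microRNA genes, 78 over the 7 libraries. All levels that follow are those of the host transcripts.

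Promoter windows of RefSeq (GRCm38.p6), 250 bases before to 50 after a gene's start, were found for 93 of the 131 genes. Of these, 82 have a RefSeq start within 1000 bases of the start in the count table and 11 do not, the farthest being Snhg14 at 474418 bases, so for those 11 the window is not that of the counted gene's own start. The windows were searched for 3 features. The first was TAATCC on either strand, the letters read by the homeodomain factors OTX2 and CRX of photoreceptors. It occurred in 12 of the 93 windows (12.9%) and in 11 of the 82 (13.4%), beside 7.06% of all 32851 windows. By class, TAATCC was in 3 of 18 windows of snoRNA hosts, 0 of 14 of microRNA hosts and 2 of 29 with a divergent start. The second was a run of at least 8 C or T bases touching positions -5 to 10. That rule is looser than the 5′ terminal pyrimidine tract, which many snoRNA host genes are known to share with ribosomal protein genes. It does not require the run to begin at the start. Such a run was in 5 of 18 windows of snoRNA hosts (27.8%), 4 of 14 of microRNA hosts (28.6%, and 2 of 10 among the nearer starts) and 6 of 29 of genes with a divergent start (20.7%), beside 11.3% of all windows. These classes share genes. Snhg1, Snhg10, Snhg18 and Rab26os are counted both as snoRNA hosts and as divergent, and Snhg10 also as a microRNA host. Of all members with a window 15 of 93 had such a run (16.1%), and of those neither divergent nor hosts of snoRNAs 8 of 53 (15.1%). A run may share the letters TCC with a TAATCC match. The third was the number of CG dinucleotides, with a median of 7 in all windows. The median was 30 in the 29 windows of genes with a divergent start and 25 in the 18 of snoRNA hosts. For microRNA hosts it was 12.5 in 14 windows and 27 in the 10 with a nearer start. Genes neither divergent nor hosts of snoRNAs had a median of 9 in 53 windows (11 in the 43 with a nearer start). At least 1 window or part of a window is printed for each of these 3 features, 5′ to 3′ on the gene's strand. AI847159, one of the most abundant members per length and one whose groups did not overlap, has TAATCC in capitals 20 bases before the start (chr2:129180624-129180923, minus strand). Snhg1 (chr19:8723437-8723536, plus strand) and Snhg12 (chr4:132308628-132308727, plus strand) are shown for the last 100 bases of the window with their 9-base pyrimidine runs in capitals. Zfas1, a snoRNA host with a divergent start, is shown with its 47 CG in capitals (chr2:167062684-167062983, plus strand).
AI847159: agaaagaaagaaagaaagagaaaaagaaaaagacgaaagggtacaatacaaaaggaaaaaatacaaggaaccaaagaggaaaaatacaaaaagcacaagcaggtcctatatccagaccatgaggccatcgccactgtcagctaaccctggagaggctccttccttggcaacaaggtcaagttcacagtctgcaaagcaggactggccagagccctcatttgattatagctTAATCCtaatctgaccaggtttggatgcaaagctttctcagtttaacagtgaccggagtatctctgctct
Snhg1: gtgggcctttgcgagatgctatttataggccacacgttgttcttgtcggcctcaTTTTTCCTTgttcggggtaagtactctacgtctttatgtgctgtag
Snhg12: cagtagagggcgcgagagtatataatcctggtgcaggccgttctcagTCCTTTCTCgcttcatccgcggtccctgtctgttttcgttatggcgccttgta
Zfas1: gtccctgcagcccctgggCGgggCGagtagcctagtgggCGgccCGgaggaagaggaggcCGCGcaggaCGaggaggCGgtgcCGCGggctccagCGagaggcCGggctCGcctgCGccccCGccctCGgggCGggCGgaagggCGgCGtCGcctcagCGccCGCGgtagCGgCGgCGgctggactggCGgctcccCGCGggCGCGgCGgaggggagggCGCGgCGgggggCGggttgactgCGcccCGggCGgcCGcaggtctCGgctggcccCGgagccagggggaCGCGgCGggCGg
The RefSeq starts lie 6, 12, 55 and 0 bases from those of the count table for AI847159, Snhg1, Snhg12 and Zfas1. The pyrimidine runs of Snhg1 and Snhg12 begin at positions 5 and -3 from the RefSeq starts. In both genes the count-table start lies upstream of the RefSeq start, so from it the run falls outside positions -5 to 10. A match is a stretch of letters and was not tested for binding.

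Total counts were between 14655431 and 17563493 per library. Saline replicate 2 had the lowest total and the fewest genes with a count, 21260 against 24024 to 24846 in the other libraries. The 131 genes held 0.540%, 0.563%, 0.622% and 0.505% of all counts in the 4 Ang II libraries (in replicate order), against 0.538%, 0.532% and 0.489% in the 3 saline libraries. The shares of the groups overlapped, and Ang II replicate 3 had the highest. Between 56.8% and 62.0% of these counts came from 4 genes, Mir124-2hg, Mir124a-1hg, Malat1 and Meg3. The tissue label was checked on 10 rod markers, which had summed levels of 53607 to 65852 CPM in Ang II and 66949 to 71575 CPM in saline, and none was at 0 throughout. All 10 lay lower in Ang II (median log2 fold change -0.21), and their sums did not overlap between groups. Pigment epithelium markers summed to 1090 to 1912 CPM in Ang II and 196 to 985 CPM in saline, with none of the 13 at 0 throughout. Of these 13, 12 lay higher in Ang II (median log2 fold change 1.16), again without overlap of the sums. Gliosis markers summed to 371 CPM in Ang II replicate 3 and to 118 to 149 CPM in the other 6 libraries, lens markers to 2236 CPM in Ang II replicate 2 and at most 459 CPM elsewhere, and skeletal muscle markers to 129 CPM in Ang II replicate 3 and at most 16.6 CPM elsewhere. The part of these tissues in the levels below was not tested. Values without 1 library are given for some genes, and they do not remove a difference that runs through a whole group.

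The hosts of miR-124, the microRNA most typical of neurons, were the most abundant members per length. Levels between genes are compared as RPKM (counts per kilobase of gene length, scaled to library size), and differences between groups as CPM, both after TMM scaling. Over all 7 libraries Mir124-2hg (ENSMUSG00000100252) averaged 194.6 ± 21.5 RPKM and Mir124a-1hg (ENSMUSG00000097545) 182.3 ± 16.3 RPKM (SD, n = 7), less than their spread apart. Malat1 (ENSMUSG00000092341) followed at 96.9 ± 17.3 RPKM, then AI847159 at 63.3 ± 7.45 RPKM and Rncr4, a retinal RNA, at 53.9 ± 14.2 RPKM, and the ranges of the last pair overlapped. Below them Cct6a was at 37.1 ± 2.51 RPKM, Vax2os at 32.4 ± 6.81 RPKM, Uckl1os at 30.7 ± 4.83 RPKM, Epb41l4aos at 29.5 ± 4.93 RPKM and the imprinted Meg3 at 27.6 ± 2.83 RPKM, each within the spread of its neighbours from Vax2os on. The median member was at 2.40 RPKM, so the 10 named here stand far above most. Poly-A selection favours transcripts with a poly-A tail, so levels of genes that differ in this are not strictly comparable.

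**Figure D1:**
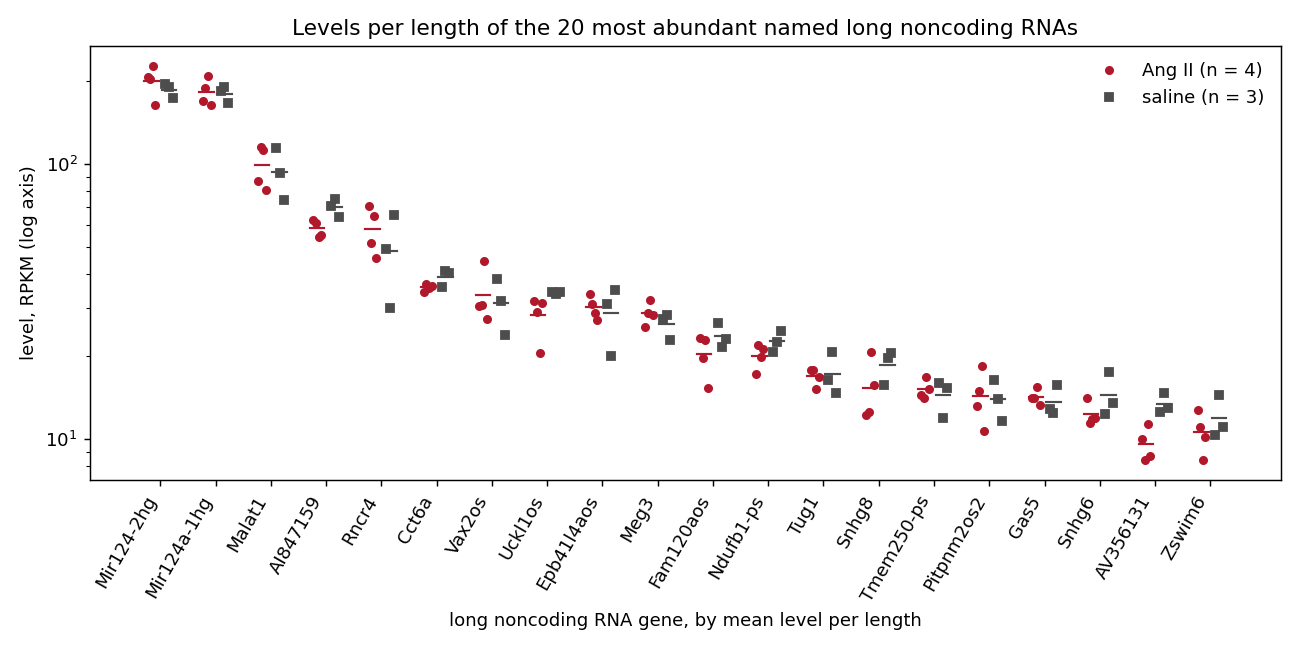
Level per length (RPKM, log axis) of the 20 named long noncoding RNAs of highest mean, with 1 point per library (Ang II circles on the left of each pair, saline squares on the right) and a line at each group mean. Mir124-2hg and Mir124a-1hg lie above Malat1, and the groups overlap in all but AI847159, Uckl1os and AV356131.

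Ang II against saline was tested with edgeR's quasi-likelihood test over all 17078 genes that passed its filter on low counts, and all 131 members passed. No member was called: 0 of 131 had a Benjamini-Hochberg adjusted p under 0.05, as did 0 of the 17078 genes (0.0% called), and the lowest adjusted p of a member was 0.982. Before adjustment 10 members had a p under 0.05, 7 higher and 3 lower, against a background of 4.62% of all genes (2.9% higher and 1.72% lower). DESeq2 called 0 members (0.205% of all genes) and limma-voom with quality weights called 1, Snhg14 (0.668% of all genes, with 15.6% at an unadjusted p under 0.05). Without the filter on low counts edgeR called 1 member, Neat1 (0.32% of all genes), and without saline replicate 3 it called 0 members (0.667% of all genes). In bulk retina a smaller number of cells of a type and less RNA per cell cannot be told apart.

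Most members lay close to 0. Their median log2 fold change, Ang II over saline, was 0.07, beside -0.0048 for all genes and -0.0093 for protein-coding genes. Within 0.5 of 0 lay 119 of 131 members, and likewise 15626 of all 17078 genes tested. On the higher side were 79 members and on the lower side 52, where 48.9% of all genes lay above 0. Without Ang II replicate 3 the median was 0.03. That library held the highest level of 37 members (28.2%, against 19.6% of all genes), and saline replicate 2 the lowest level of 37 members (28.2%, against 23.2%). Saline replicate 2 also had the lowest total counts and the fewest genes with a count. Members varied more between libraries than genes did in general, with a median coefficient of variation of 21.7% against 13.9%. They were also less abundant, with a median of 2.40 RPKM against 4.75 RPKM for all genes tested. The comparison was not matched for level. The median coefficient was 13.5% for the 49 members with at least 10 CPM and 28.6% for the 82 below.

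Between role classes the medians were close to 0 as well. Among members that overlap a protein-coding gene 48 of 67 lay higher, with a median of 0.09, and among those that overlap none 31 of 64 did, with a median of -0.01. Antisense genes lay higher in 34 of 48 (median 0.08), and bidirectional_promoter_lncRNA genes in 1 of 7 (median -0.18), Cep83os. The kit does not mark strand and the strand setting of the counting was not given in the sources used here, so reads of an antisense gene and of the gene it overlaps cannot be told apart. Hosts of snoRNAs lay higher in 11 of 21 (median 0.004), hosts of microRNAs in 9 of 20 (median -0.03), and genes with a divergent start in 23 of 42 (median 0.007).

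**Figure D2:**
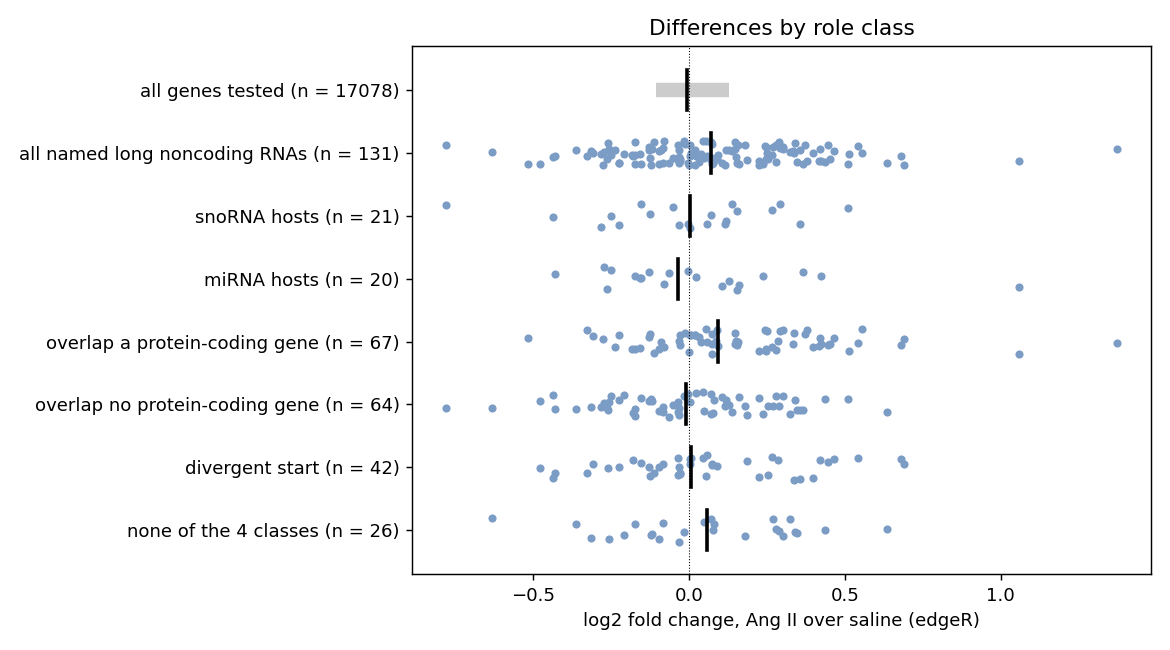
Log2 fold change (Ang II over saline, edgeR) of each member by role class, with the class median as a line, and the median and quartiles of all 17078 genes as a line and a grey band on top. A gene can stand in several classes, and every class median lies within 0.1 of 0.

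The groups did not overlap in 7 members, 4 higher and 3 lower, where 5.91% of all genes did so (3.18% higher and 2.73% lower). The most abundant was AI847159 (ENSMUSG00000084826, chromosome 2, 129158666 to 129180667, mm10), an antisense-labelled gene that overlaps no protein-coding gene of the table. It had 99.0, 96.1, 85.6 and 87.0 CPM in Ang II replicates 1 to 4, against 110.5, 117.9 and 101.1 CPM in saline replicates 1 to 3. Every Ang II library lay below every saline library, by a narrow gap. The log2 fold change was -0.26 ± 0.09 (SE; edgeR adjusted p = 0.982, unadjusted 0.0122).

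Uckl1os (ENSMUSG00000010492, chromosome 2, 181578480 to 181585170), which lies opposite the uridine kinase gene Uckl1, had 79.9, 73.4, 52.0 and 79.1 CPM in Ang II, against 86.3, 85.3 and 86.4 CPM in saline. Saline libraries were nearly alike and Ang II replicate 3 was the lowest. Its log2 fold change was -0.27 ± 0.13, and -0.14 without Ang II replicate 3. Uckl1os also overlaps Zfp512b on the other strand, whose level is not compared here. Exons of Uckl1os share 28.6% of their length with coding exons, and Uckl1 had 169 ± 10.7 CPM in Ang II and 195 ± 45.9 CPM in saline (SD, n = 4 and 3). AV356131 (ENSMUSG00000108461, chromosome 7, 116443575 to 116444324), which starts back to back with the lipid kinase gene Pik3c2a, had 7.54, 6.29, 8.54 and 6.52 CPM in Ang II, against 9.41, 11.1 and 9.72 CPM in saline. All 4 Ang II values were under the saline values, with a log2 fold change of -0.48 ± 0.18. Pik3c2a itself had overlapping groups and a log2 fold change of 0.02 ± 0.20.

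On the higher side BC055402 (ENSMUSG00000101429, chromosome 1, 57200645 to 57214993) had 36.6, 26.95, 32.3 and 28.1 CPM in Ang II, against 23.7, 22.9 and 26.89 CPM in saline. The lowest Ang II and the highest saline library all but touched, and the log2 fold change was 0.34 ± 0.13. AI504432 (ENSMUSG00000056145, chromosome 3, 107039504 to 107054347) had 22.1, 23.8, 22.9 and 25.2 CPM in Ang II, against 19.8, 18.1 and 20.2 CPM in saline, with a log2 fold change of 0.28 ± 0.12. Spread within each group was small for this gene, and so was the gap. Etohd2 (chromosome 13, 59769497 to 59775407), opposite the iron-sulfur cluster gene Isca1, had 3.35, 3.79, 4.55 and 4.22 CPM in Ang II, against 3.22, 1.68 and 2.51 CPM in saline. Saline replicate 1 came close to the Ang II libraries, and the log2 fold change was 0.68 ± 0.28, while Isca1 was at -0.03 ± 0.10. Without saline replicate 2 the log2 fold change of Etohd2 was 0.47. Etohd2 also overlaps Tut7 and Gm49354 on the other strand, whose levels are not compared here. Exons of Etohd2 share 30.9% of their length with coding exons. Zfp469 (chromosome 8, 122269569 to 122272650), a lincRNA in the table and a zinc finger protein gene in RefSeq, had 2.10, 1.41, 1.39 and 1.27 CPM in Ang II, against 0.867, 0.210 and 0.672 CPM in saline. This was the largest fold among the members, 1.37 ± 0.46 on the log2 scale, at one of the lowest levels. Without saline replicate 2 the log2 fold change was 0.996. Zfp469 overlaps the coding gene Gm20388 on the same strand, whose level is not compared here. Zfp469 reached the limit on level only through the Ang II libraries (means of 1.56 CPM in Ang II and 0.572 CPM in saline before scaling between libraries), so its high fold is favoured by that limit. Of the other members, 3 had a mean under 1 CPM in saline only and 1 in Ang II only. None of these 7 genes passed the threshold (edgeR adjusted p = 0.982 for each).

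**Figure D3:**
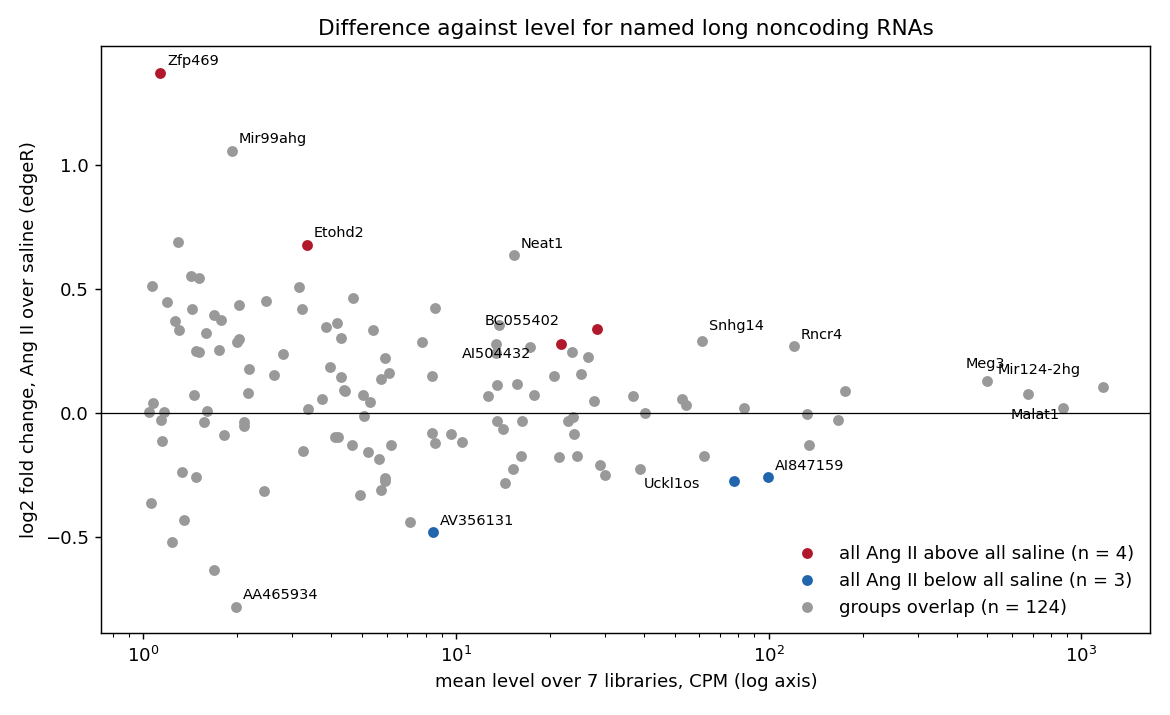
Log2 fold change (Ang II over saline, edgeR) against the mean level in CPM (log axis) of the 131 genes, with the 4 members whose Ang II libraries all lay above saline in red and the 3 whose libraries all lay below in blue. Differences beyond 0.5 are mostly at levels under 10 CPM, with Neat1 the exception.

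Neat1 (ENSMUSG00000092274, chromosome 19, 5824708 to 5845478), the scaffold of paraspeckles, had 15.7, 14.6, 29.9 and 12.2 CPM in Ang II, against 12.7, 12.3 and 9.84 CPM in saline. These are counts of the whole gene in poly-A selected RNA, so its transcripts are not told apart. Ang II replicate 3 was the highest library, and Ang II replicate 4 lay within the saline range. The log2 fold change was 0.64 ± 0.29 (edgeR adjusted p = 0.982, and 0.0427 without the filter on low counts, with up to 0.9998 over the alternatives), and 0.29 without Ang II replicate 3. That library also had the highest sum of gliosis markers, 371 CPM, and whether the 2 are related was not tested. Malat1, which lies beside Neat1 on chromosome 19 (5795690 to 5802672), had 609, 806, 789 and 565 CPM in Ang II, against 801, 648 and 519 CPM in saline, with high and low libraries in both groups and a log2 fold change of 0.08 ± 0.16 that was -0.06 with limma-voom and without saline replicate 3. Of 12 paraspeckle proteins 9 lay higher, with 0.06 as the median log2 fold change, among them Pspc1 (0.33 ± 0.20) and Dazap1 (0.26 ± 0.15), and 0 were called.

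**Figure D4:**
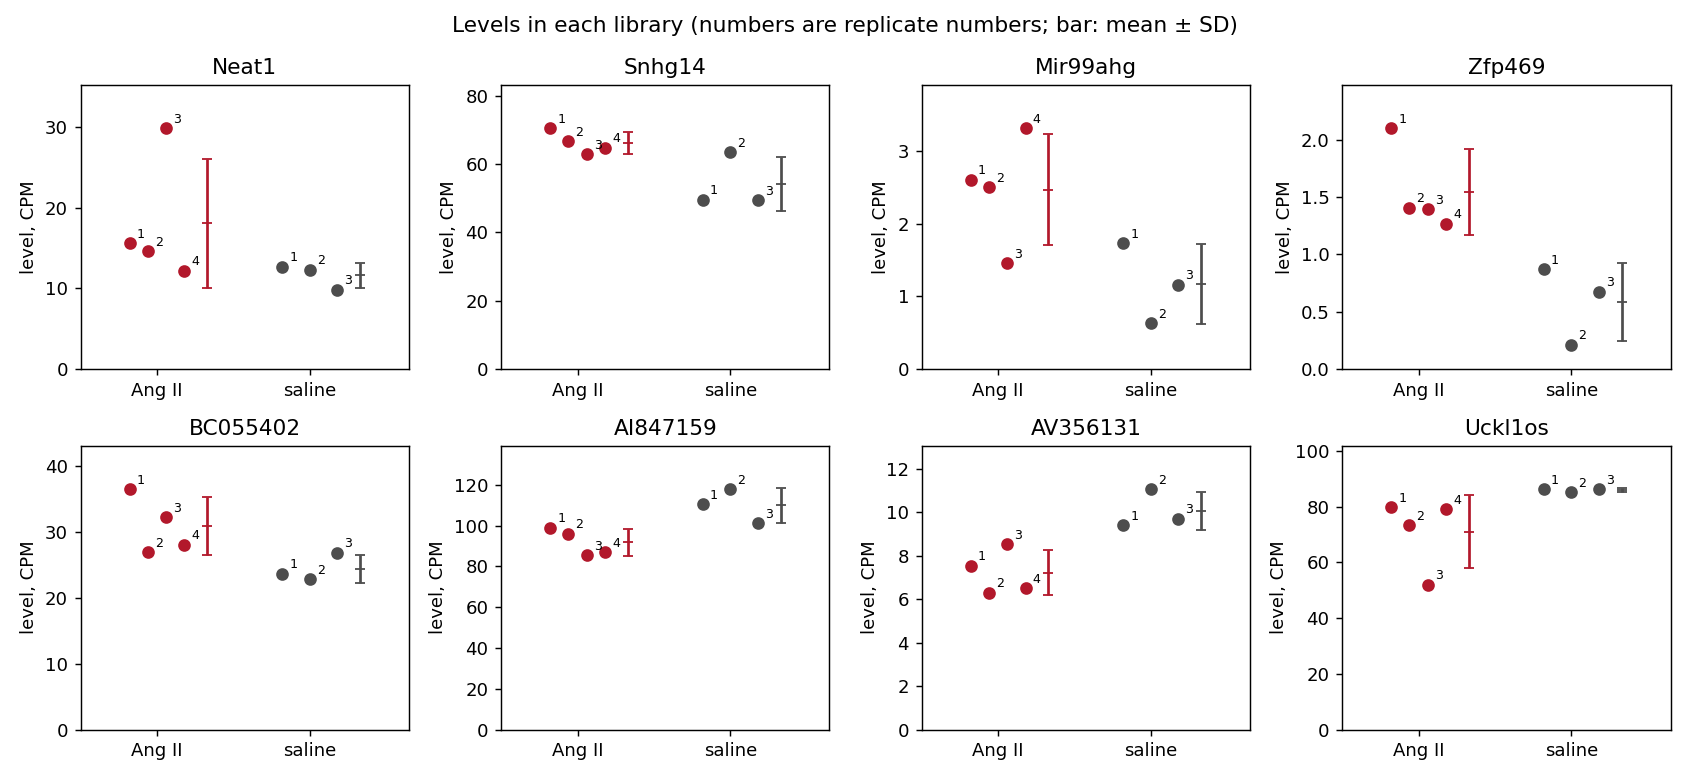
Level in CPM of 8 members in each library (Ang II left, saline right, numbers are replicate numbers), with the group mean ± SD beside the points. Neat1 is high in Ang II replicate 3, at 29.9 CPM, and AI847159, AV356131 and Uckl1os lie lower in every Ang II library than in every saline library.

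Snhg14 (ENSMUSG00000100826, chromosome 7, 59307924 to 59975759), the imprinted host of 208 snoRNA genes of the table whose far end runs antisense to the ubiquitin ligase gene Ube3a, had 70.4, 66.6, 62.8 and 64.7 CPM in Ang II, against 49.5, 63.4 and 49.4 CPM in saline. Saline replicate 2 reached into the Ang II range and the other saline libraries were well below it. Its log2 fold change was 0.29 ± 0.11 with edgeR (adjusted p = 0.982) and 0.40 ± 0.08 with limma-voom, where it rose (adjusted p = 0.0262). Over the alternatives its adjusted p ran between 0.0262 and 0.9998. Ube3a had 85.4, 89.4, 90.9 and 78.4 CPM in Ang II, against 71.1, 82.3 and 69.2 CPM in saline, again with saline replicate 2 inside the Ang II range, and a log2 fold change of 0.21 ± 0.09. Exons of Snhg14 share 7.01% of their length with coding exons.

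The other imprinted transcripts had log2 fold changes between -0.26 and 0.16, with a wide SE for Mirg and Airn. Meg3 (chromosome 12, 109541001 to 109571726), the first of a chain of maternally expressed RNAs, had 463, 519, 580.0 and 512 CPM in Ang II, against 494, 512 and 415 CPM in saline, overlapping groups with a log2 fold change of 0.13 ± 0.10. Further along that chain Rian, a host of 13 snoRNA and 4 microRNA genes, was at 0.00 ± 0.12 and Mirg, a host of 14 microRNA genes, at -0.26 ± 0.26. Kcnq1ot1, made from the paternal copy of the Kcnq1 locus, was at 0.16 ± 0.17, and Airn, antisense to the growth factor receptor gene Igf2r, at 0.15 ± 0.30 with Igf2r at -0.07 ± 0.09. Of the 6 imprinted members 4 lay higher, with a median of 0.14, and edgeR called 0. Of the 9 genes on that list H19 (0.157 CPM) and Nespas (0.0349 CPM) were under the limit, and Peg13, at 429 CPM, has another biotype in the table.

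Hosts of microRNAs showed no called difference. Mir124-2hg had 1248, 1224, 1372 and 985 CPM in Ang II, against 1173, 1144 and 1045 CPM in saline, and the lowest as well as the highest library was an Ang II one (log2 fold change 0.11 ± 0.11). Mir124a-1hg had 818, 911, 1007 and 791 CPM in Ang II, against 886, 919 and 799 CPM in saline, the same picture (0.02 ± 0.10). Mir99ahg (ENSMUSG00000090386, chromosome 16, 77236317 to 77773427), the host of let-7c, miR-99a and miR-125b, had 2.61, 2.51, 1.45 and 3.32 CPM in Ang II, against 1.73, 0.631 and 1.16 CPM in saline. Ang II replicate 3 lay inside the saline range, and the log2 fold change was 1.06 ± 0.40, ranging from 0.77 to 1.45 when 1 library was left out. The same let-7c sequence lies in Lncppara, at 0.16 ± 0.20. Mir22hg was at 0.42 ± 0.20, with 9.64 ± 1.56 CPM in Ang II and 7.18 ± 1.60 CPM in saline (SD, n = 4 and 3). Smaller or opposite differences were those of Mir17hg (-0.27 ± 0.20), Mir9-3hg (0.24 ± 0.26), Dleu2 (-0.08 ± 0.21), Mir670hg (-0.06 ± 0.15), C78859 (-0.13 ± 0.26), Zswim6 (-0.17 ± 0.15) and Dio3os (-0.43 ± 0.55). Of 7 genes that process microRNAs, Drosha and Dicer1 among them, 2 lay higher (median -0.05) and 0 were called.

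Among hosts of snoRNAs the 5 most abundant per length were Cct6a (-0.13 ± 0.08), Epb41l4aos (0.07 ± 0.18), Snhg8 (-0.28 ± 0.19), Gas5 (0.06 ± 0.10) and Snhg6 (-0.22 ± 0.15). Gas5 (chromosome 1, 161034422 to 161038539), the best known of them, had 53.1, 52.9, 58.2 and 50.1 CPM in Ang II, against 48.4, 46.7 and 59.2 CPM in saline, and these ranges overlapped. Lower in Ang II, with overlapping groups, were Snhg20 (27.8 ± 3.38 CPM in Ang II and 33.1 ± 2.62 CPM in saline, log2 fold change -0.25 ± 0.12), Snhg18 (-0.44 ± 0.22, but -0.06 with limma-voom and -0.23 without saline replicate 2) and AA465934 (-0.78 ± 0.40, the lowest of all members, with -0.55 to -1.21 when 1 library was left out). Snhg1, with the pyrimidine run printed above, had 15.7, 13.1, 15.2 and 16.6 CPM in Ang II, against 12.0, 9.46 and 14.1 CPM in saline (0.36 ± 0.16). Its highest saline library passed 1 Ang II library. Host transcripts of this kind are known to be degraded by nonsense-mediated decay. Of 10 decay factors 4 lay higher (median -0.05), and 0 had an unadjusted edgeR p under 0.05. Upf1 (-0.10 ± 0.08) and Smg6 (-0.14 ± 0.09) lay lower in every Ang II library than in every saline library, as 2.73% of all genes did. A bearing of these factors on the hosts was not tested. Of 8 proteins of snoRNA particles 4 lay higher (median 0.002), and 0 genes of either list were called.

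Long noncoding RNAs described in the retina or eye field numbered 14 members of 17 listed, 10 of them higher (median 0.08), and edgeR called 0. Of the other 3, Zeb2os was at 0.284 CPM, Dlx6os1 at 0 CPM and Six6os1 was not analysed here. Vax2os (chromosome 6, 83692806 to 83712201), a retina-specific RNA that overlaps the start of the homeobox gene Vax2, had 165, 167, 240.3 and 149 CPM in Ang II, against 206, 172 and 129.8 CPM in saline. Ang II replicate 3 was the highest, and the log2 fold change of 0.09 ± 0.20 was -0.07 without that library. Rncr4 (chromosome 6, 30172893 to 30175126) had 158, 115, 145 and 101 CPM in Ang II, against 109.7, 67.2 and 146 CPM in saline, and saline replicate 2 was the lowest of all (0.27 ± 0.29, and 0.02 without that library). Tug1, needed for photoreceptor development in mouse, had 173, 174, 149 and 164 CPM in Ang II, against 160.2, 202 and 143 CPM in saline (-0.03 ± 0.11). Six3os1, at 84.1 ± 8.40 CPM in Ang II and 82.9 ± 2.14 CPM in saline, was among the steadiest, with a coefficient of variation of 7.30% over the 7 libraries. Miat was at -0.01 ± 0.13, Otx2os1 at 0.25 ± 0.13, Pax6os1 at -0.01 ± 0.24, Sox2ot at -0.16 ± 0.23, Rmst at 0.37 ± 0.26 and Dlx1as at 0.25 ± 0.37.

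Coding partners had a median absolute log2 fold change of 0.08. For 92 pairs of a member and a tested protein-coding gene that it overlaps or starts beside, 51 pairs had the same sign and the partner had the higher RPKM in 72. The eye-field factors were near 0: Six3 was at -0.08 ± 0.09, Otx2 at 0.06 ± 0.09, Pax6 at 0.02 ± 0.10, Sox2 at -0.01 ± 0.16 and Vax2 at 0.00 ± 0.15. Rax, the retinal homeobox gene opposite Raxos1, had 96.5 ± 7.24 CPM in Ang II and 117 ± 2.83 CPM in saline. Its log2 fold change was -0.27 ± 0.09, with no overlap between groups. Raxos1 itself had 13.8, 16.1, 16.6 and 11.0 CPM in Ang II, against 14.4, 8.90 and 13.1 CPM in saline, with overlapping groups and a log2 fold change of 0.24 ± 0.19. Exons of Raxos1 share 63.0% of their length with coding exons, and the kit does not mark strand. Its counts may therefore not be separate from those of Rax. Cep83, a centriole gene back to back with Cep83os, lay higher in every Ang II library (0.44 ± 0.17), and Cep83os was at 0.23 ± 0.19 with overlapping groups. Rax and Cep83 were named after their values were seen, and neither passed the threshold. Groups did not overlap in 5.91% of all genes, so some of the partners would be apart at that share alone.

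**Figure D5:**
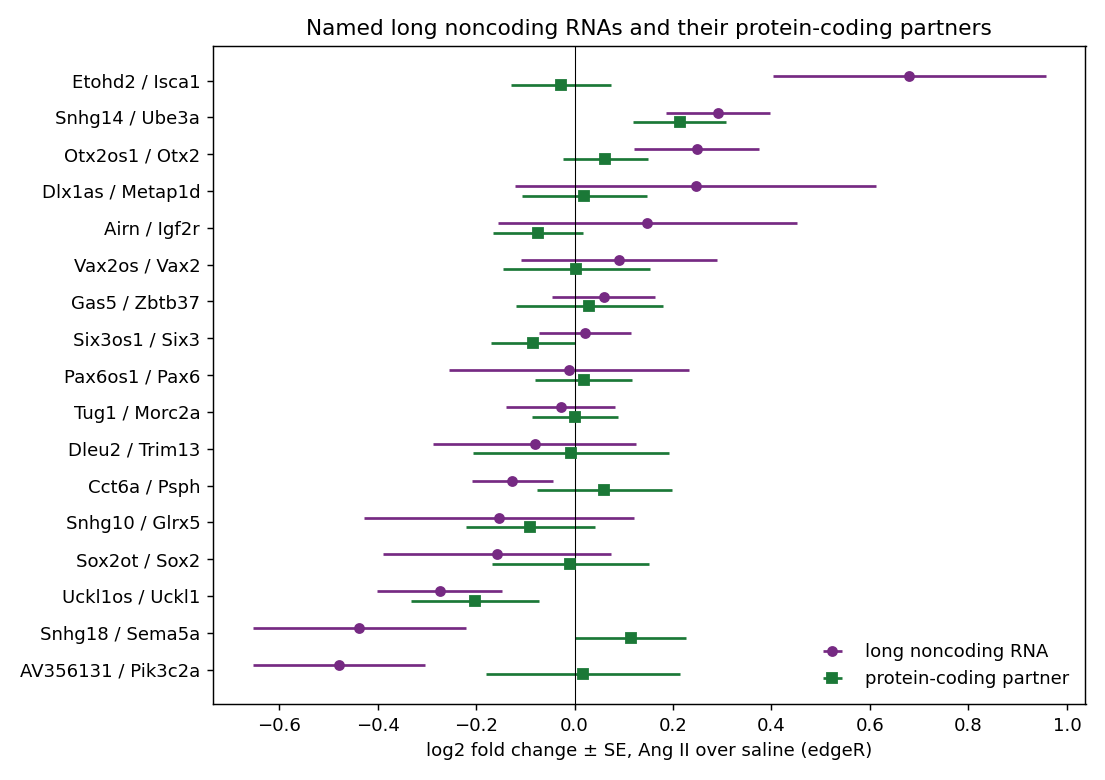
Log2 fold change ± SE (Ang II over saline, edgeR) of 17 named long noncoding RNAs (circles) and the most abundant tested protein-coding gene that each overlaps or starts beside (squares). Snhg14 and Ube3a both lie above 0, whereas AV356131 and Etohd2 lie away from 0 with their partners near it.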

How the data were processed

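Poly-A selected RNA of 7 retina libraries was analysed from the deposited table of whole-number counts per gene, which the authors did not normalize. CASAVA, HISAT2 2.0.5, featureCounts 1.5.0-p3 and build mm10 are named in the submitters' processing notes. How reads shared between genes were counted, and with which annotation release, is not given in the sources used here. Columns were matched to samples by their descriptions, and 0 were left unmatched.

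The quasi-likelihood test of edgeR 4.0.16 (R 4.3.3, robust, two-sided) was fitted to all 7 libraries with the group as its only term, after filterByExpr and TMM scaling, with Benjamini-Hochberg adjustment over all genes and a threshold of 0.05. SE was back-calculated from each gene's log2 fold change and F statistic. DESeq2 1.42.0, limma 3.58.1 (voom with sample quality weights), other scalings and filters, a replicate block and leaving out each library were alternatives. The steps were tested on simulated data. CPM and RPKM used TMM-scaled library sizes and the gene lengths in the table. The total counts per library limit precision most at low levels. All 21 pairs of libraries differed by more than sampling noise.

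Of the 131 IDs, 130 were in GENCODE M21, 129 with the same span. Members and lists were chosen with earlier results of these data known. Genes named were the 10 highest in RPKM and the 6 of smallest p in each direction. Also named were those whose groups did not overlap or that any tool called, and members of the retina and imprinted lists. MicroRNA hosts, the 5 most abundant snoRNA hosts and some of the coding partners of all these were named too. Others, named after their values were seen, are Snhg1, Snhg12, Zfas1, Raxos1, Rax, Cep83os, Cep83, Upf1, Smg6, Pspc1 and Dazap1.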

Additional observations from a re-analysis of the deposited data

Results flagged for a closer look

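In a group of 4 libraries a single value was taken to stand apart when its gap to the nearest other, over the range of the group, passed Dixon's limit for 4 samples, which chance passes in about 1 of 20 groups. Of 48 tests in the Ang II group 2 did so. Zfp469 had 2.10 CPM in Ang II replicate 1, above 1.27 to 1.41 CPM in the other Ang II libraries, and its log2 fold change was 1.19 without that library. Dlx1as, antisense to a homeobox gene, had 2.26 CPM in Ang II replicate 2, above 1.36 to 1.45 CPM in the other Ang II libraries, and its log2 fold change of 0.25 was 0.04 without that library. The saline group has 3 libraries and was not given this test.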

How the results depend on the processing

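Among the alternatives, edgeR's count of 0 members past the threshold was 1 with limma-voom (Snhg14) and 1 without a filter on low counts (Neat1), and 0 under each of the others. Over all genes edgeR called 0, DESeq2 35, limma-voom 114 and edgeR without a filter 98, and leaving out 1 library gave between 0 and 117 (0.667%, without saline replicate 3). Both groups use replicate numbers 1 to 3, and same-numbered libraries did not deviate together (correlations -0.07, -0.02 and 0.05). With replicate number as a block on 6 libraries, 57 genes (0.337%) and 0 members were called, and the same 6 libraries without the block gave 0 and 0. The block changed no call of a member. The members' median log2 fold change of 0.07 was -0.0090 over the 64 members that overlap no protein-coding gene, 0.11 with library size alone (0.04 for all genes), 0.12 with the block, and 0.03 to 0.11 when 1 library was left out. The difference in share of counts, 0.0379 percentage points, lay between 0.0164 and 0.0553 when 1 library was left out and was 0.0254 without Mir124-2hg. Of the 47 named members 19 changed sign in at least 1 of 15 alternatives, 18 of them when a library was left out, and all of these were uncalled. Depth limits the members under 10 CPM most.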
